A study of Mus musculus with 14 samples.

Results

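The array carries probes that target intergenic stretches of the mouse genome annotated as sources of long noncoding RNA, each named only by its mm9 coordinates and by a mark, F or R. These region probes number 16181 of the 55681 probes on the array, and 16161 of them had a usable spot on every array. A region probe was kept as a member when the scanner software marked it well above background on every array of 1 group or more, out of 4. The rule uses detection and tests no comparison, but a dim probe can enter through the 1 group where it is bright. Differences of such a probe between groups are then partly set by the rule. By this rule 2879 of 16161 probes were kept, or 17.8%, against 43.9% of the other probes. The probes cover 3540 regions, and the members lie in 1418 of them. The files do not define F and R. The letters are treated here as strand marks, because 1067 regions carry both and the other 2473 carry one.

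RNA came from macrophages grown from bone marrow with M-CSF. The donors were female C57BL/6 mice, 8 weeks old. All groups carry LysM-Double-Cre, a Cre recombinase driven by a promoter active in macrophages and other myeloid cells. The transgenic groups also carry a TFEB transgene and the wild-type groups do not, and TFEB is a transcription factor for genes of lysosomes and autophagy. Cells of each genotype spent 24 h in DMEM alone (control) or in DMEM with medium conditioned by EO771 mammary tumour cells and with tumour lysate (tumour). The design therefore asks how cells of each genotype respond to tumour material, and how transgenic cells differ from wild-type cells within a medium. The series states 3 biological replicates a group. Analysed here are 14 one-colour arrays of 11 replicates: 3 wild-type control replicates on 4 arrays, 3 wild-type tumour replicates on 4, 3 transgenic control replicates on 3 and 2 transgenic tumour replicates on 3. Transgenic tumour replicate 1 is not analysed here.

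Long noncoding RNAs are transcripts without a protein-coding reading frame. Some act in the nucleus on neighbouring genes or on chromatin, and others serve as precursors of microRNAs or of small nucleolar RNAs. In macrophages many of them are induced or shut off together with protein-coding genes when the cells meet inflammatory or tumour-derived signals. The gene behind a region probe was not assigned here, since no mm9 annotation was used, and no probe sequence was used either.

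Levels are given as the log2 signal minus the log2 of the same array's 75th percentile, so that 0 is the brightness of the probe at that percentile. A difference passed the test when its adjusted p in limma, over all 17192 features fitted together, was under 0.05. Arrays of 1 replicate were averaged for the levels, means and SDs. Transgenic control replicate 1 stood somewhat apart: over the members it correlated with replicates 2 and 3 at 0.951 and 0.945, while pairs within the wild-type groups reached 0.981 to 0.988. Slide 1 holds no transgenic tumour array. Slide column 4 holds 3 arrays, namely those of transgenic control replicates 1 and 2 and the second array of transgenic tumour replicate 3. These arrays had a larger spatial correction by the scanner software than the others. The level of Tfeb, the transgene's mouse counterpart, was 0.88 ± 0.08 (SD, n = 3) in wild-type control and 1.17 ± 0.29 (SD, n = 3) in transgenic control, a difference of 0.31 that did not pass the test (limma adjusted p = 0.171). With tumour material Tfeb was 0.69 higher in transgenic cells (limma adjusted p = 0.0285), and whether its probe reads the transgene is not known from the files. Of 8 macrophage markers, 7 were above background on all arrays. None of the 7 epithelial markers was above background on any array, Epcam and Krt8 among them, so tumour cell RNA from the lysate was not detected through them. Markers of some other cell types differed between groups. All 9 neutrophil markers were kept. The log2 of their summed signal, which the brightest marker can dominate, lay between 7.86 and 7.95 in wild-type control. It lay between 5.74 and 6.50 in wild-type tumour. Sums for the other cell types are made in the same way. In transgenic control the neutrophil sum was 9.15, 7.47 and 7.62 in replicates 1, 2 and 3, and in transgenic tumour 5.14 and 5.003 in replicates 2 and 3. Of 4 B cell markers 1 was kept, with Cd79a and Ms4a1 above background on no array. The B cell sum lay between 1.41 and 1.89 in wild-type control, -0.88 and -0.10 in wild-type tumour, 1.33 and 3.31 in transgenic control, and -0.27 and -0.01 in transgenic tumour. Of 6 fibroblast markers 5 were kept. The fibroblast sum was 4.38, 0.48 and 4.48 in wild-type control replicates 1, 2 and 3, between 5.05 and 5.44 in wild-type tumour, 3.29, -0.10 and 2.07 in transgenic control, and 3.14 and 2.95 in transgenic tumour. Of 4 mast cell markers 2 were kept. The mast cell sum lay between 0.18 and 0.99 in the wild-type groups. It was -0.18, 2.51 and 2.54 in transgenic control, and 2.74 and 2.60 in transgenic tumour. Neither of these 2 markers passed the test in any comparison, nor did the 2 T and NK cell markers kept. The part of these markers in the results that follow was not tested, and in bulk RNA fewer cells of a type and less RNA per cell cannot be told apart.

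Most region probes gave no signal: 11506 were above background on none of the 14 arrays, and another 1776 on some arrays without filling a group. Of the 2879 members, 2024 were above background in all 4 groups, 265 in 3, 279 in 2 and 311 in 1. Members detected in a single group were spread over the groups, with 69 in wild-type control only, 81 in wild-type tumour only, 75 in transgenic control only and 86 in transgenic tumour only. A further 78 members were kept in both tumour groups and in neither control group, and 100 in both control groups and in neither tumour group. The rule's edge runs through dim probes: 453 probes missed it by 1 array, with a median level of -2.69, and members kept in 1 group had a median of -2.30. Single arrays detected 16.8% to 21.1% of the region probes and 41.7% to 46.6% of the other probes. The highest share of region probes belonged to transgenic control replicate 3.

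**Figure D1:**
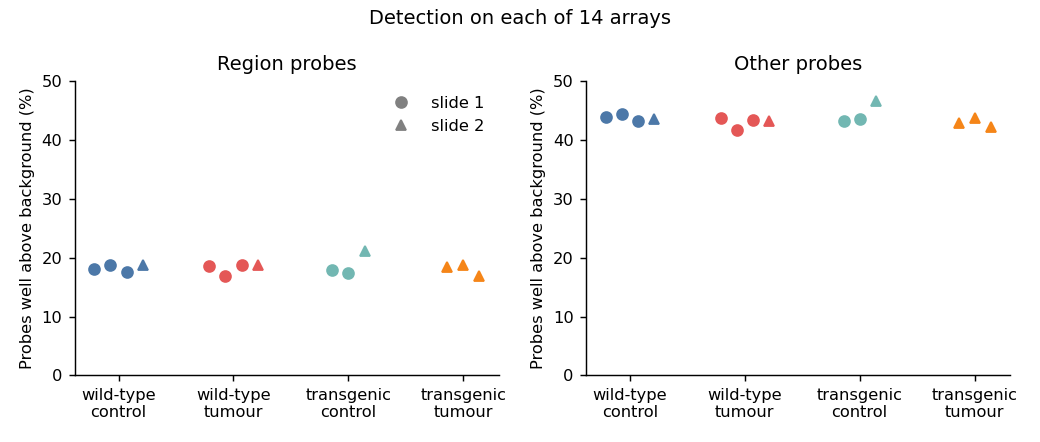
Share of probes well above background, in percent, on each array, for region probes (left) and all other probes (right). Each point is 1 array, circles are slide 1 and triangles are slide 2; region probes lie between 16.8% and 21.1% in every group and other probes between 41.7% and 46.6%.

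Tumour material did not shift the share of region probes detected by more than the spread between replicates. Over replicates it was 18.1% ± 0.806 (SD, n = 5) with tumour material and 18.5% ± 1.32 (SD, n = 6) in control medium, a difference of -0.457 percentage points (exact permutation test, two-sided, p = 0.597). Without transgenic control replicate 3 the difference was 0.0532 points. For the other probes the same comparison gave -1.25 points (exact permutation test, two-sided, p = 0.0433). Transgenic control replicate 3 had the highest share of other probes as well, at 46.6%. The comparison of other probes was not repeated without it. By mark, 1395 F probes (17.1% of those measured) and 1484 R probes (18.6%) were kept.

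The kept share also differed by chromosome and by region length, and these differences were not tested. By chromosome it ran from 11.3% on chromosome 9 to 24.6% on chromosome 19, with 23.8% on chromosome 17 and 23.2% on chromosome 14. Probes of regions up to 1000 bases were kept in 14.4% of cases, those of regions over 1000 and up to 3000 bases in 20.0%, and those of regions over 100000 bases in 14.3%. A region strand, meaning the probes of 1 region with 1 mark, carries 1 to 10 probes. Only 19.5% of region strands with 1 probe had a member, and 72.6% of those with 10 probes did, although the share of probes kept was 19.5% and 21.3%. Of the 3376 region strands with at least 3 probes, 2012 had no member, 1221 had some of their probes kept and 143 had all of them kept. Among the 1067 regions with both marks, 209 had members on F only, 226 on R only, 248 on both and 384 on neither.

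Region probes were dimmer than the rest. The median level of the members was -0.48 against 1.79 for the other features tested, and 58.9% of members against 28.6% of other features lay below 0. Brightness depends on the probe as well as on the transcript, so these levels do not order transcripts by abundance. None of the 5 brightest members passed the test in any of the 5 comparisons. A_30_P01031448, at chr14:78924115-78938125 with mark F, read 9.80, 9.55 and 9.72 in wild-type control, 9.78, 9.94 and 9.66 in wild-type tumour, 9.42, 9.23 and 9.39 in transgenic control, and 9.90 and 9.68 in transgenic tumour. The wild-type groups overlap. A_30_P01023523 (chr6:116092274-116144199, F), A_30_P01031264 (chr12:73838608-73862621, R), A_30_P01022075 (chr17:17481706-17482457, R) and A_30_P01029358 (chr4:136856064-136877219, R) had wild-type control means of 9.58, 9.12, 9.13 and 8.64. Their wild-type tumour estimates ran from -0.27 to 0.14 and their transgenic ones from -0.28 to 0.39. A_30_P01029358 varied most in transgenic control, at 7.44, 7.70 and 8.78, and its difference of -0.78 from wild-type control did not pass the test (limma adjusted p = 0.12). A bright probe did not speak for its whole region. In the chromosome 6 region, 5 of 8 members with mark R fell with tumour material in wild-type cells, A_30_P01031738 by 1.25, while A_30_P01023523 had a difference of 0.01. On its own mark, F, 1 of 3 members fell, with estimates from -0.53 to 0.01.

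In wild-type macrophages, tumour material changed 969 of the 2879 members, 582 higher and 387 lower. That is 33.7% of members, against a background of 39.4% over all 17192 features (22.6% higher and 16.8% lower). The share of members was below that of the other features in every level band but the dimmest, at 38.6% of members and 42.5% of other features between levels 2 and 4, and 25.8% and 32.0% between -2 and -1. In the dimmest band, under -3, 78.9% of 19 members and 67.2% of 137 other features passed. A probe this dim can be kept through 1 bright group, so these 2 shares are partly set by the detection rule. The median log2 difference of members was 0.06, and over all features it was 0.04. Differences past 2-fold were found for 217 rises and 144 falls among the 2879 members, and for 1337 rises and 1207 falls among all 17192 features. By mark, 32.5% of F members and 34.7% of R members passed. Without wild-type tumour replicate 3, 580 members passed, or 20.1% of members against 25.6% of other features. When arrays were scaled on probes detected on all of them, rises made up 46.1% of the calls in place of 60.1%.

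**Figure D2:**
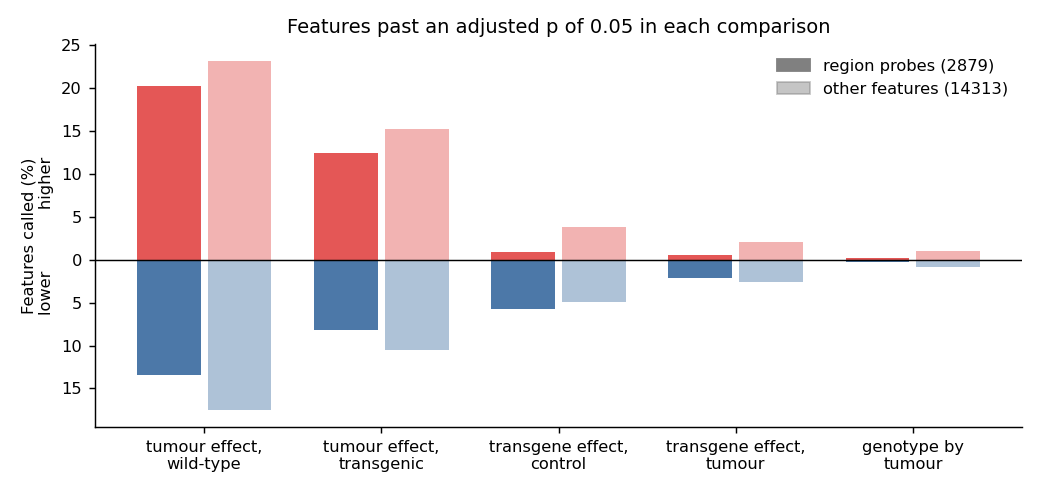
Percent of features past a limma adjusted p of 0.05 in each comparison, bars up for higher and bars down for lower, for region probes (dark) and other features (light). Region probes pass less often than the other features in all 5 comparisons, and their transgene effects lie mostly on the lower side, with 165 of 192 calls lower in control medium.

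The largest fitted rises came from 1 stretch of chromosome 16. There, 4 region strands overlap, F and R of chr16:84702353-84710928, and 2 short F regions inside it, chr16:84707202-84707748 and chr16:84708695-84708806. All 10 of their members rose with tumour material in both genotypes. No transgenic control array was above background for any of the 10, and no wild-type control array for 9 of them. On the R mark, A_30_P01020928 read -3.25, -2.997 and -3.38 in wild-type control and 3.66, 3.71 and 4.03 in wild-type tumour. In transgenic cells it read -4.60, -4.47 and -4.40 in control and 3.49 and 3.48 with tumour material. Every tumour replicate stood far above every control replicate, and the probe was above background on no control array and on all tumour arrays. Where no array of a group is above background, a fitted difference is taken against signal that was not resolved. The fold is then given against a floor. Each array of the dim group received the lowest signal that still counted as well above background there. The probe's own value was used where that was higher. The mean of these was set against the mean of the bright group. Brighter signals can also miss the flag: A_30_P01032196, described below, read -2.24, -2.44 and -2.21 in wild-type control, with 1 of 4 arrays above background. Folds given as at least a value are therefore bounds against this floor only, and a higher floor would give a smaller fold. The rise of A_30_P01020928 was at least 125-fold in wild-type and at least 174-fold in transgenic cells (fitted differences 7.10 and 8.07, SE 0.17 and 0.22, limma adjusted p = 7.47e-11 and 7.99e-10). A_30_P01018526 on the same strand rose at least 109-fold and at least 111-fold. The bounds of the 9 members in wild-type cells began at 5.94-fold, and those of the 10 in transgenic cells at 2.57-fold, both for A_30_P01025697, which 1 of 3 transgenic tumour arrays measured above background.

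The F probes of this stretch showed the same order of groups at lower brightness. A_30_P01033281 read -4.60, -4.75 and -4.55 in wild-type control and 1.49, 1.46 and 1.76 in wild-type tumour. Its transgenic values were -4.39, -4.29 and -5.13 in control and 0.75 and 0.51 with tumour material. It rose at least 44.7-fold in wild-type cells (limma adjusted p = 2.85e-10) and at least 24.1-fold in transgenic cells. A_30_P01024571, of the longer F region, rose at least 34.7-fold and at least 24.2-fold. A_30_P01032196, in the shortest region, had the largest fitted difference between genotypes in control medium among the 10 members of this stretch. It read -2.24, -2.44 and -2.21 in wild-type control and -5.09, -3.54 and -4.89 in transgenic control, a fall of at least 2.86-fold (limma adjusted p = 0.00113). The wild-type control value was above background on 1 of 4 arrays only. In all, 3 of the 10 members were lower in transgenic than in wild-type cells in control medium.

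A region on chromosome 13 behaved in a like manner on 1 mark only. The 3 F members of chr13:15947521-15999246 rose at least 15.5-fold, 21.2-fold and 36.5-fold in wild-type cells and at least 13.2-fold, 15.98-fold and 28.9-fold in transgenic cells, and none of the 5 R probes there was a member. A_30_P01023276 read -4.87, -3.53 and -3.93 in wild-type control and 1.08, 1.06 and 1.91 in wild-type tumour. In transgenic cells it went from -4.87, -4.84 and -4.99 to 1.04 and 0.75. No control replicate came near a tumour replicate, and no control array was above background. A member of another region 51625 bases away, on the same mark, had a difference of -0.67 in wild-type cells that did not pass the test.

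**Figure D3:**
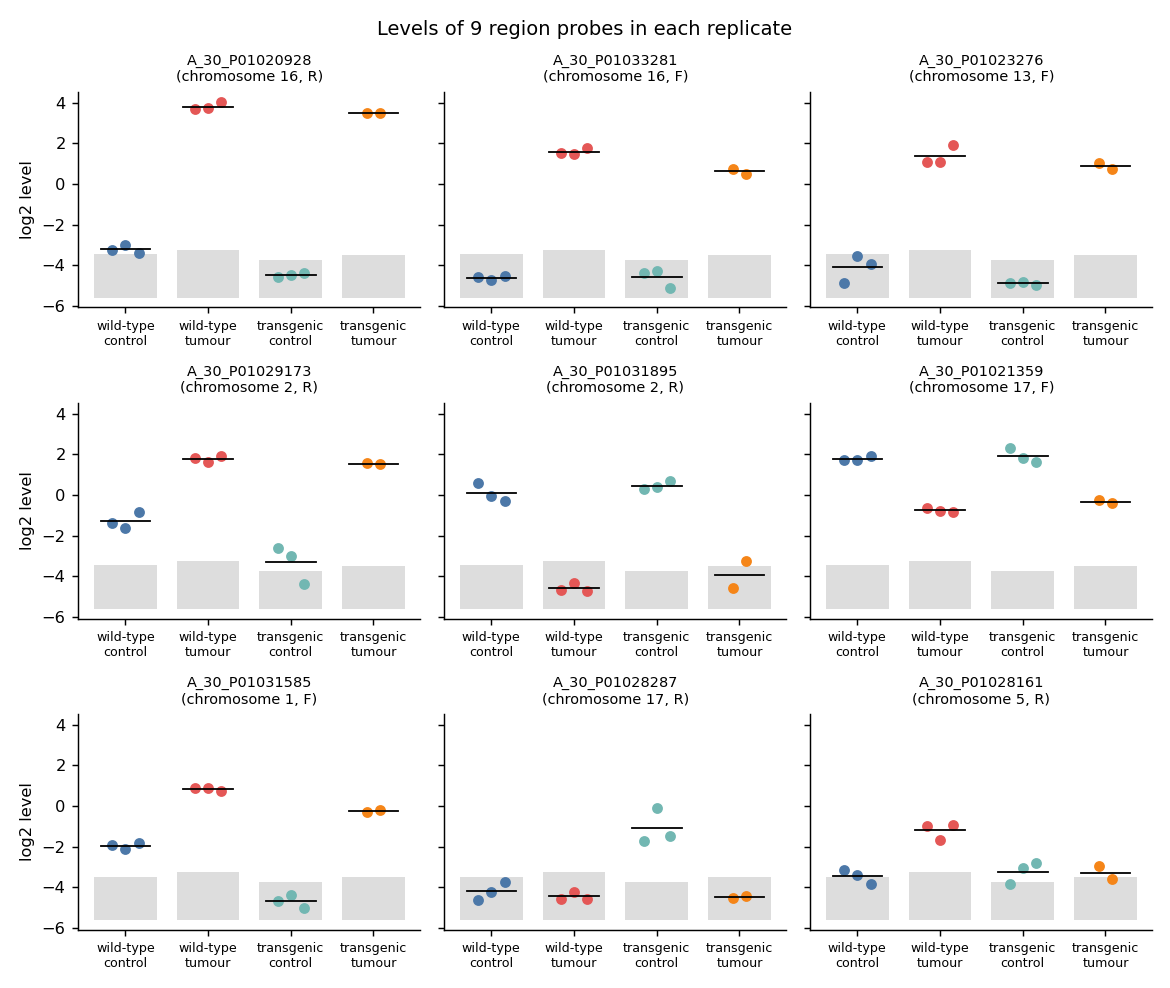
Log2 level relative to the array's 75th percentile for 9 region probes, 1 point per replicate and a line at each group's mean. Grey blocks reach up to the dimmest signal well above background on the arrays of that group (the highest of them); the upper row rises from within or near the grey zone in both genotypes.

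On chromosome 2, 4 region strands with mark R lie within 100000 bases of one another: chr2:128137419-128141735, chr2:128142035-128142481, chr2:128211990-128215223 and chr2:128217275-128217972. All 11 of their members rose with tumour material in wild-type cells, with fitted differences of 1.36 to 3.26, and all 11 rose in transgenic cells, with fitted differences of 1.96 to 4.91. In control medium all 11 estimates were below 0 in transgenic cells, from -2.35 to -1.11, and 9 of them passed the test. With tumour material none of the 11 differed between genotypes by the test, with estimates from -0.78 to -0.20. A_30_P01029173 read -1.38, -1.60 and -0.83 in wild-type control and 1.82, 1.64 and 1.91 in wild-type tumour. In transgenic cells it read -2.60, -2.995 and -4.36 in control and 1.57 and 1.53 with tumour material. Both tumour groups thus sat together and the control groups apart, with no array of transgenic control above background. Its difference between genotypes in control medium (at least 3.58-fold) lost its call without wild-type control replicate 3 (limma adjusted p = 0.0594). Its rise was 2.98 in wild-type (SE 0.34, limma adjusted p = 3.23e-05) and at least 25.2-fold in transgenic cells (limma adjusted p = 1.12e-05). Whether the rise itself differed between genotypes did not pass the test for any of the 11 members.

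A further pair of regions rose with tumour material from a lower transgenic control level. At chr16:23992037-24001037, mark F, A_30_P01020303 read -2.28, -2.81 and -1.78 in wild-type control, 0.76, 0.91 and 0.91 in wild-type tumour, -3.80, -4.35 and -4.67 in transgenic control, and 0.96 and 0.72 in transgenic tumour. Its rise was 3.05 in wild-type cells and 5.09 in transgenic cells, at least 25.6-fold in the latter. The single R member of that region, A_30_P01031711, rose by 0.83 in wild-type cells, a call lost without wild-type tumour replicate 3 (limma adjusted p = 0.0537). At chr1:33965074-34060850, A_30_P01031585 with mark F read -1.92, -2.10 and -1.81 in wild-type control, 0.88, 0.90 and 0.73 in wild-type tumour, -4.66, -4.38 and -5.01 in transgenic control, and -0.27 and -0.20 in transgenic tumour. The 4 groups do not overlap. It rose by 2.73 in wild-type cells and at least 13.3-fold in transgenic cells, and in control medium it was at least 4.06-fold lower in transgenic cells (fitted difference -2.77, SE 0.17, limma adjusted p = 5.83e-06). A probe on chromosome 8, chosen after its values were seen, was above background on all 14 arrays: A_30_P01032489 at chr8:41934312-41945487, mark R, rose by 3.76 in wild-type and 4.72 in transgenic cells.

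Falls with tumour material were led by chr2:84344350-84370075, mark R, where all 4 members fell in both genotypes, with fitted differences from -4.61 to -1.21 in wild-type cells. A_30_P01031895 read 0.58, -0.04 and -0.27 in wild-type control and -4.68, -4.33 and -4.70 in wild-type tumour. In transgenic cells it read 0.31, 0.38 and 0.70 in control and -4.58 and -3.24 with tumour material. The probe was above background on every control array and on no tumour array, a fall of at least 10.99-fold in wild-type cells (fitted difference -4.61, SE 0.34, limma adjusted p = 1.05e-06) and at least 16.1-fold in transgenic cells. A_30_P01018917 beside it fell at least 8.85-fold in wild-type cells and at least 9.78-fold in transgenic cells. The transgenic call of A_30_P01018917 was lost without transgenic tumour replicate 3 (limma adjusted p = 0.06), and so was that of A_30_P01025035 (0.0749). Also, 2 members of other R regions within 100000 bases fell in wild-type cells, by 0.75 and 1.43.

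The 3 F members of chr17:71183978-71185384 fell in both genotypes as well. A_30_P01021359 stayed above background on every array and read 1.74, 1.73 and 1.90 in wild-type control, -0.66, -0.79 and -0.82 in wild-type tumour, 2.32, 1.83 and 1.61 in transgenic control, and -0.27 and -0.38 in transgenic tumour. Control and tumour replicates do not overlap in either genotype, and the wild-type difference was -2.59 (SE 0.14, limma adjusted p = 7.68e-08). A_30_P01021048 fell at least 8.23-fold and A_30_P01027810 at least 4.75-fold in wild-type cells. The transgenic call of A_30_P01027810 was lost without transgenic tumour replicate 3 (limma adjusted p = 0.203). At chr11:60728207-60745369, A_30_P01021628 with mark R fell by 2.39 in wild-type and by 3.28 in transgenic cells, from 0.14 ± 0.12 (SD, n = 3) and 1.17 ± 0.09 (SD, n = 3) in the control groups. At chr1:74084292-74138492, A_30_P01032937 with mark F fell at least 3.33-fold in wild-type cells and at least 6.38-fold in transgenic cells. Its transgenic call was lost without transgenic tumour replicate 3 (limma adjusted p = 0.108).

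Probes of 1 region did not always move together. At chr5:31856417-31916317, 3 of 4 F members fell in wild-type cells, the largest by 2.62 (A_30_P01021833). The fourth, A_30_P01027058, had a difference of 0.17 that did not pass the test. At chr9:65376063-65390480, mark R, A_30_P01020903 fell at least 2.49-fold and A_30_P01019072 fell by 1.33, while A_30_P01019472 rose by 0.50. The calls of A_30_P01020903 and A_30_P01019472 were lost without wild-type tumour replicate 3 (limma adjusted p = 0.0721 and 0.0675). Over all members the probes of 1 strand mostly shared a direction: 190 region strands had 2 or more members past the test in wild-type cells, 93 of them all higher, 87 all lower and 10 mixed. Such probes may read the same transcript and are not independent. Counted by overlapping regions, the 969 calls fall in 492 separate stretches of the genome.

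Both marks could be compared in the 248 regions with members on each. A mark counted as passing when 1 or more of its members passed. In wild-type cells 57 of these regions passed on both marks, 28 higher on both, 11 lower on both, 15 in opposite directions and 3 mixed within a mark. At chr19:5771425-5848475, counted as higher on both, only 1 of 10 F members rose beside the 1 R member. How many such regions independent calls would give was not tested. At chr12:55844075-55898175 all 3 F members rose by 1.98 to 2.09 and all 5 R members by 1.63 to 2.55. At chr17:26911397-26917047 all 10 F members fell, by 1.13 to 1.76, and so did the single R member, by 1.57. Other regions split by mark. At chr6:50339188-50409363 the 4 R members fell by 1.13 to 2.69 in wild-type cells while the single F member, A_30_P01018958, rose by 0.52, a call lost without wild-type tumour replicate 3 (limma adjusted p = 0.104). At chr14:78214602-78225827 the single F member rose by 3.097 and both R members fell, by 1.22 and 1.48. At chr8:119090566-119097735 all 5 R members rose and 1 of 3 F members fell.

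**Figure D4:**
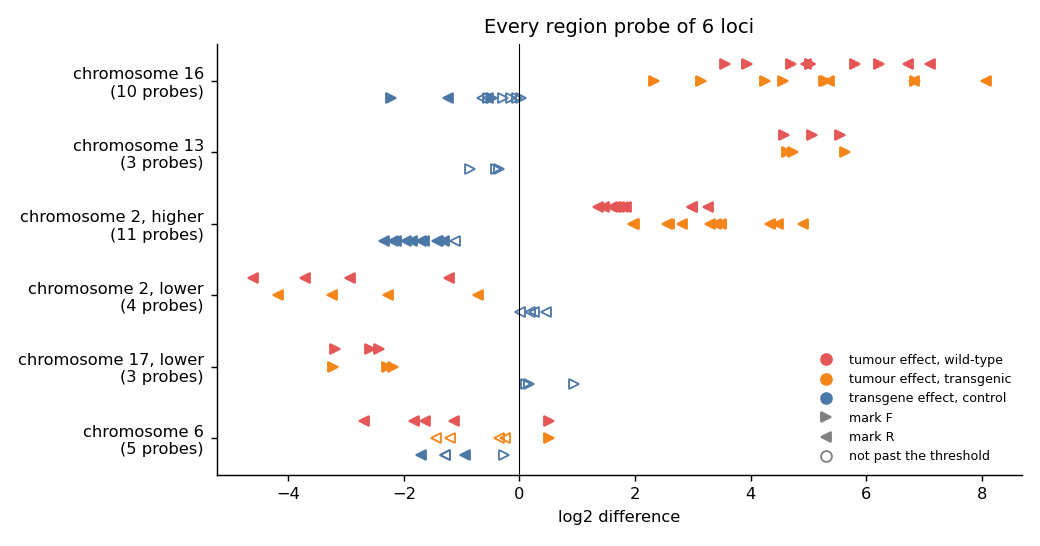
Log2 difference of every region probe at 6 loci, with triangles pointing right for mark F and left for mark R; filled symbols passed a limma adjusted p of 0.05. On chromosome 16 all 10 probes rise in both genotypes, and on chromosome 2 all 11 probes of the rising group lie below 0 in the transgene effect in control medium; that row and the chromosome 16 row include regions within 100000 bases.

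In transgenic macrophages, tumour material changed 592 members, 357 higher and 235 lower, or 20.6% against a background of 24.8% (14.7% higher and 10.2% lower). The median difference of members was 0.11 and that over all features 0.06. The transgenic estimates rest on 2 tumour replicates and had larger errors, with a median SE of 0.256 against 0.196 in wild-type cells. The lower count therefore does not show a smaller response. Without transgenic tumour replicate 3, 324 members passed, or 11.3% of members against 14.9% of other features. With repeat arrays averaged, 361 passed, or 12.5% against 16.9%. When arrays were scaled on probes detected on all of them, rises made up 48.3% of the calls in place of 60.3%. Some of the largest transgenic falls had small wild-type estimates. A_30_P01028287 at chr17:34018371-34019394, mark R, read -4.63, -4.23 and -3.74 in wild-type control and -4.57, -4.21 and -4.56 in wild-type tumour. In transgenic cells it read -1.69, -0.11 and -1.49 in control and -4.54 and -4.44 with tumour material. Transgenic control was the only group in which it was above background, so the rule kept it through that group. Its fall in transgenic cells was at least 6.67-fold (limma adjusted p = 0.000148). A_30_P01030387 (chr19:53517903-53540753, R), A_30_P01017632 (chr17:95149413-95174473, F) and A_30_P01030698 (chr11:16831925-16851121, R) fell at least 4.11-fold, 4.87-fold and 4.27-fold in transgenic cells, with wild-type estimates of -0.45, -0.72 and 0.00 that did not pass. The calls of A_30_P01030387 and A_30_P01030698 were lost without transgenic tumour replicate 3 (limma adjusted p = 0.123 and 0.274).

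The transgene effect in control medium ran mostly downward among region probes. Of 192 members past the test, 165 were lower and 27 higher in transgenic cells. That is 6.67% of members against a background of 8.46% (3.34% higher and 5.11% lower). Among the other features 714 were lower and 548 higher. The median difference of members was -0.13 and that of all features -0.04. Members in all 4 groups showed the same split, 114 lower and 17 higher, with a median of -0.13. The median of members was below that of other features in each of 8 level bands, from -0.17 to -0.09 for members and from -0.10 to 0.03 for other features. The 32 region strands with 2 or more members past the test comprised 28 lower on all of them and 4 higher.

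**Figure D5:**
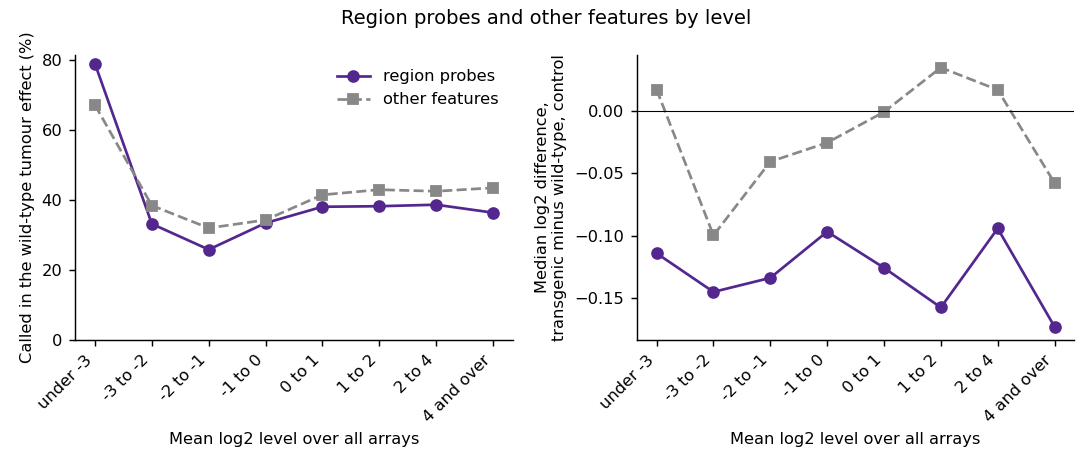
Region probes and other features in bands of the mean log2 level over all arrays: percent past the test in the wild-type tumour effect (left) and median log2 difference of transgenic minus wild-type cells in control medium (right). Points are bands, with no error bars because they are counts and medians over features; the region median lies below the other features in every band, at -0.17 to -0.09.

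The count of this comparison moved with the arrays used. With slide column 4 as a term in the fit, 61 members passed, and within slide 1 there were 216. Slide 2 holds 1 replicate of each control group and its 2 residual degrees of freedom come from the transgenic tumour arrays alone, so its count of 0 (limma; 347 of 2879 had an unadjusted p under 0.05) says little about this comparison. Without transgenic control replicate 1, whose neutrophil markers were highest, 361 passed; without wild-type control replicate 3, 42; without wild-type control replicate 1, 118; and without transgenic tumour replicate 3, 114. The median difference of members was -0.07 with column 4 as a term, -0.09 within slide 1 and -0.22 within slide 2, where that over all features was 0.01, -0.04 and -0.03.

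The 5 largest fitted falls in transgenic control were those of A_30_P01031585 and A_30_P01032196, given above, of A_30_P01023701 and A_30_P01023785 on chromosome 2, and of A_30_P01019445. A_30_P01023701 at chr2:128137419-128141735 read -0.53, -1.34 and -0.57 in wild-type control and -2.34, -3.85 and -3.10 in transgenic control, a difference of -2.35 (SE 0.35, limma adjusted p = 0.00169). A_30_P01019445, in a region on chromosome 18 with mark F, read 3.52, 2.74 and 3.94 in wild-type control and 1.80, 0.82 and 0.60 in transgenic control, a difference of -2.45 (SE 0.33, limma adjusted p = 0.00106). With tumour material it stood at 4.73 ± 0.18 (SD, n = 3) and 4.41 ± 0.32 (SD, n = 2) in the 2 genotypes. The calls of these 5 probes held without any 1 replicate.

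Rises in transgenic control were fewer and less firm. A_30_P01028287, given above, was at least 7.03-fold higher in transgenic than in wild-type control (fitted difference 2.999, SE 0.35, limma adjusted p = 0.000437), and this call held without any 1 replicate. A_30_P01023554 of the same region read -2.55, -1.82 and -2.08 in wild-type control and -0.92, 0.30 and -0.19 in transgenic control, a difference of 1.88 (limma adjusted p = 0.0184). A_30_P01025495 at chr14:62254361-62301162, mark R, read -1.09, -0.92 and -1.51 in wild-type control and 1.01, 0.85 and -0.76 in transgenic control. Replicate 3 of transgenic control thus lay close to the wild-type values. The differences of A_30_P01023554, A_30_P01025495, A_30_P01030698 and A_30_P01017632 did not pass without wild-type control replicate 3 (limma adjusted p = 0.12, 0.124, 0.223 and 0.178).

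With tumour material the transgene effect reached 77 members, 60 lower and 17 higher, or 2.67% against a background of 4.35% (1.85% higher and 2.5% lower). The median difference over all 2879 members was -0.11 and that of all features -0.02. With no slide term in the fit these medians were -0.003 and -0.02. Without transgenic tumour replicate 3 they were -0.03 and 0.01. With repeat arrays averaged, 9 members passed. The count also moved with single replicates. Without transgenic tumour replicate 3, or without wild-type tumour replicate 3, 5 members passed, and without wild-type tumour replicate 1, 43. Without transgenic control replicate 1, 2 or 3 there were 296, 153 and 117. Of the 10 probes named for this comparison by rank, 8 lost their call without transgenic tumour replicate 3, and 8 without wild-type tumour replicate 3. The 2 largest falls belonged to probes that rose with tumour material in wild-type cells and did not pass the test in transgenic cells. A_30_P01028161 at chr5:23195569-23218551, mark R, read -3.16, -3.38 and -3.84 in wild-type control, -0.99, -1.67 and -0.92 in wild-type tumour, -3.85, -3.06 and -2.81 in transgenic control, and -2.94 and -3.59 in transgenic tumour. Wild-type tumour was the only group above background, so the rule kept the probe through it. The transgenic tumour level was at least 4.13-fold lower (fitted difference -2.73, limma adjusted p = 0.00361). That call was lost without transgenic tumour replicate 3 (limma adjusted p = 0.13). A_30_P01026001 at chr10:95772764-95825001, mark F, was at least 3.997-fold lower, with an adjusted p in limma of 0.00177 that rose to 0.0773 without wild-type tumour replicate 3. A_30_P01026996 at chr17:3206316-3208050, mark F, read -2.34, -2.40 and -2.33 in wild-type tumour and -3.66 and -4.48 in transgenic tumour. It was above background on 1 of 4 wild-type tumour arrays and on no transgenic array in either medium, and its call (limma adjusted p = 0.00786) was lost without transgenic tumour replicate 3 (0.509).

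Rises of the transgenic tumour group were smaller. A_30_P01027154 at chr1:92549499-92550225, mark R, read -1.19, -1.48 and -1.95 in wild-type tumour and -0.11 and 0.08 in transgenic tumour, a difference of 1.62 (SE 0.25, limma adjusted p = 0.00395). The groups do not overlap, and the adjusted p in limma was 0.241 without transgenic tumour replicate 3. The other 4 largest rises lay between 1.10 and 1.49. They were A_30_P01023429 (chr1:175705225-175717250, F), A_30_P01033573 (chr2:143988645-143993945, R), A_30_P01031522 (chr7:134374716-134375286, R) and A_30_P01027242 (chr3:40439525-40509975, F). Each of them lost its call without some replicate.

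The difference between the tumour effects of the 2 genotypes passed the test for 15 members, 6 higher and 9 lower in transgenic cells, or 0.521% against a background of 1.62% (0.832% higher and 0.791% lower). Among them are the probes given above on chromosomes 1, 5, 10, 16 and 17. Each of these 5 has 1 or 3 groups with no array above background, so their interactions are fitted differences against unresolved signal. With normexp background correction the interaction of A_30_P01031585 on chromosome 1 was -0.0356 (limma adjusted p = 0.976). On chr3:21964899-21974524, mark R, 2 of 4 members differed: A_30_P01022266 fell by 1.31 in wild-type cells and had a transgenic estimate of -0.13, and A_30_P01018336 fell by 0.91 against an estimate of 0.32. With repeat arrays averaged, 3 members passed. Without transgenic control replicates 1 and 2, each in turn, 103 and 26 members passed. Without wild-type control replicate 1 or wild-type tumour replicate 1 there were 9, without transgenic tumour replicate 3, 2, and without wild-type tumour replicate 3, 0 (limma; 164 had an unadjusted p under 0.05). Of the 10 probes named for this comparison by rank, none kept its call without any 1 replicate.

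Long noncoding RNA genes measured by probes with a gene symbol gave a set beside the regions. Of 51 listed, 34 were matched by symbol to probes on the array and 24 were bright enough to test. Unmatched genes may still be measured by probes without a symbol, which was not examined. With tumour material 8 rose and 6 fell in wild-type cells, where 39.4% of all features passed, and 2 rose and 7 fell in transgenic cells, where 24.8% did. In control medium 1 was higher and 3 lower in transgenic cells, against 8.46% of all features. The median differences were -0.07, -0.24 and -0.08, beside 0.04, 0.06 and -0.04 over all features. Calls of these genes are given from the main fit only. Morrbid, which acts in cis on the apoptosis gene Bcl2l11 in myeloid cells, rose by 2.71 in wild-type and 5.01 in transgenic cells. The difference between these rises did not pass the test (limma adjusted p = 0.142). In transgenic against wild-type control Morrbid differed by -1.62 (limma adjusted p = 0.0445). Kcnq1ot1, an antisense RNA of an imprinted locus, fell by 1.84 and 1.60, and Peg13, also imprinted, fell by 1.63 and 1.80. Mir22hg, the host of a microRNA, rose by 1.56 in wild-type cells. Lncpint was lower in transgenic cells in both media, with differences of -1.11 and -1.24. H19, an imprinted RNA abundant in embryonic tissues, was lower in transgenic cells in both media, with differences of -2.90 and -6.21 (limma adjusted p = 0.00388 and 0.000174). Malat1 and Neat1, abundant nuclear RNAs, had wild-type differences of 0.66, which passed the test, and 0.17, which did not.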

How the data were processed

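RNA was labelled with Cy3 and hybridised to one-colour Agilent arrays, and scans were read with Agilent Feature Extraction 10.7.3.1 (per the submitters' processing notes). The deposited scanner files hold a background-subtracted, detrended signal intensity per spot and flags, per the file headers, and the deposited matrix holds the authors' log2 values, used as an alternative. Here, spots flagged as uneven or as population outliers (166 to 270 per array) were left out, log2 intensities were scaled to the 75th percentile of all non-control spots (83.9 to 144), and spots of a probe were averaged. The percentile had been planned over probes; taking it over spots, and the choice of spot flags, followed signal ranges known from an earlier analysis of these data. Probes not kept by the detection rule were left out; the brightest probe stood for each gene symbol, and region and unnamed probes stood alone, giving 17192 features. limma 3.58.1 (R 4.3.3) fitted 4 group means and the slide, the arrays of a replicate forming a random block (estimated correlation 0.0714, 9 residual df) and Benjamini-Hochberg adjustment over all features. At this correlation, repeat arrays weighed nearly as separate samples. Named probes are the 10 (tumour effects) or 5 (other comparisons) largest rises and falls past the test with separated replicates, with separation not asked of the interaction, the 5 brightest members, and regions passing on both marks; those in prominent regions are given in full. The members, lists and rules were chosen with earlier results of these data known. On simulated data with 200 changed features among 17192, the wild-type tumour fit recovered 67.16% of 2-fold and 98.48% of 4-fold changes, with 8.571% false calls. Of 2-fold changes, 59.7% were recovered for the transgene effect with tumour material and 64.18% for that in control medium. Simulated noise was independent between arrays, with no replicate or slide effect, and 39.4% of real features passed the wild-type test. These shares therefore do not give the recovery or error of the real fits. Replicate numbers were not used to pair samples. Correlations of same-numbered deviations ran from -0.179 to 0.199 and those of other-numbered ones from -0.223 to 0.222. With 3 or fewer replicates a group, and the 2 transgenic tumour deviations mirror images of each other, this cannot exclude pairing. The number of arrays limits the precision. Alternatives cover scaling, background, slide, slide column, dim probes and each replicate left out.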

Additional observations from a re-analysis of the deposited data

Results flagged for a closer look

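For 15 region probes the tumour effect differed between the genotypes by the interaction test (limma adjusted p under 0.05 over all features). The value given is the transgenic tumour effect minus the wild-type one, in log2. A_30_P01020303 (chromosome 16, difference 2.04) and A_30_P01031585 (chromosome 1, 1.71) rose in both genotypes, and neither was above background on any transgenic control array, so their differences are fitted against unresolved signal. With normexp background correction the value of A_30_P01031585 was -0.0356 and its call was lost (limma adjusted p = 0.976). A_30_P01018336 (1.23) and A_30_P01022266 (1.18), both on mark R of chr3:21964899-21974524, fell in wild-type cells and did not pass the test in transgenic cells. A_30_P01032014 at chr5:92556322-92558910 (1.04) rose by 0.79 in transgenic cells, with a wild-type estimate of -0.26. A_30_P01032305 at chr8:48476637-48492537 (0.9996) fell by 0.66 in wild-type cells, with a transgenic estimate of 0.34.

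The other 9 had a lower value in transgenic cells. A_30_P01028287 on chromosome 17 (-3.01) fell in transgenic cells only by the test, and A_30_P01028161 (-2.98) and A_30_P01026001 (-2.19), on chromosomes 5 and 10, rose in wild-type cells only by the test. Each of these 3 was above background in 1 group only and was kept through it. Their tests are thus not independent of the rule, and the sizes of their interactions are not resolved. A_30_P01028673 at chr9:14460976-14488051 (-1.60) rose by 0.58 in wild-type cells and fell by 1.02 in transgenic cells. Its wild-type call was lost without wild-type tumour replicate 3 (limma adjusted p = 0.103). On chr4:86267450-86277650, 2 probes, A_30_P01020647 (-1.25) and A_30_P01031893 (-1.12), rose by 0.66 and 0.41 in wild-type cells, with transgenic estimates of -0.59 and -0.71, of which the second passed the test. The wild-type calls of both were lost without wild-type control replicate 3 (limma adjusted p = 0.104 and 0.311), and that second transgenic call without transgenic tumour replicate 3 (0.152). A_30_P01029118 at chr14:62254361-62301162 (-1.08) rose by 0.996 in wild-type cells. A_30_P01021240 at chrX:50400250-50410825 (-1.01) rose by 0.60 in wild-type cells, with a transgenic estimate of -0.41. A_30_P01020538 at chrX:120819096-120820227 (-0.91) rose in both genotypes, by 1.42 and 0.51, and the transgenic call was lost in 6 of the fits that left out 1 replicate (limma adjusted p up to 0.0987, without wild-type tumour replicate 3).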

How the results depend on the processing

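Members past the test numbered 969, 592, 192, 77 and 15 for the tumour effect in wild-type and in transgenic cells, the transgene effect in control medium and with tumour material, and the interaction. Within slide 2 they were 74, 227, 0, 0 and 0 (limma; 347, 272 and 198 members had an unadjusted p under 0.05 in the last 3), where the second array of transgenic tumour replicate 3 was taken as a separate sample and the 2 residual degrees of freedom come from the transgenic tumour arrays alone. With repeat arrays averaged, 361 passed for the transgenic tumour effect, 9 for the transgene effect with tumour material and 3 for the interaction. With slide column 4 as a term, 61 and 35 passed for the transgene effects in control medium and with tumour material; without that column's arrays 177 and 67 passed for the transgene effect with tumour material and the interaction. With no slide term these 2 came to 143 and 24. With the replicate number as a block they were 957, 561, 159, 51 and 14. Leaving out each replicate in turn gave 580 to 1220, 324 to 776, 42 to 361, 5 to 296 and 0 to 103. In every fit that left out a replicate, a smaller share of members than of other features passed. The difference in detection ran from -0.693 to 0.0532 percentage points when replicates were left out in turn, positive only without transgenic control replicate 3, and on the probes of genes it was -1.25. Scaling on probes detected on all arrays moved the median wild-type tumour difference of all features from 0.04 to -0.07 and that of members from 0.06 to -0.06. The interaction of A_30_P01031585 was -0.0356 with normexp background correction on the median signal (limma adjusted p = 0.976), an alternative chosen after seeing the data. With the 75th percentile taken over probes, as planned, in place of spots, 974, 594, 193, 73 and 14 members passed for the 5 comparisons, an alternative also added after seeing the data, and 69 of 70 named calls held. The causes of these changes were not tested.

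Of 70 named pairs of a probe and a comparison, 41 kept their call without any 1 replicate: 20 of 20 for the wild-type and 15 of 20 for the transgenic tumour effect, 6 of 10 for the transgene effect in control medium, and 0 of 10 for each of the other comparisons. No pair changed sign when a replicate was left out. With 3 or fewer replicates a group, SDs are rough guides. Bounds, against the floor described above, are given for single dim probes. Ranges over a region and interactions are fitted differences that include groups not above background.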
